A study of Homo sapiens with 4 samples.

Results

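The G1 cyclin genes CCND1, CCND2, CCND3, CCNE1 and CCNE2, the kinase genes CDK2, CDK4 and CDK6, the inhibitor gene CDKN1B and the retinoblastoma gene RB1 were examined in A549, an established line of human lung adenocarcinoma. They were chosen by gene symbol from the array's annotation, and all 10 were measured, each by a single probe set, among 17687 genes and 21448 probe sets in the table. The cells of all 4 arrays carried shLDOC1, a hairpin RNA that depletes LDOC1, and grew under puromycin. Those of 2 arrays also expressed H2BK120R, a form of histone H2B in which arginine replaces the lysine that takes up monoubiquitin, and those of the other 2 carried the empty vector. Per the submitters' design text, depletion of LDOC1 raised monoubiquitylated H2B and the mutant histone lowered it again, so the comparison asks how RNA levels in depleted cells differ when the mark is lower. LDOC1 itself was at 8.37 and 8.66 with H2BK120R and at 8.0 and 8.33 with the vector, a difference of 0.35 with a 95% interval from -0.15 to 0.85, and how far the hairpin lowered it was not measured on these arrays. No array of cells without the hairpin or of an unmutated H2B construct was analysed here, so the mutation and the added histone cannot be told apart. Whether each line is a clone or a pool, and whether the replicates were separate cultures, is not stated in the labels. The p-values below rest on the spread between arrays, which may be technical.

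The G1 phase ends when a cell commits to replicate its DNA. Mitogens induce the D-type cyclins, which bind CDK4 or CDK6 and begin to phosphorylate the retinoblastoma protein, and cyclin E with CDK2 completes that step. Phosphorylation releases E2F factors, which switch on the genes of S phase, among them CCNE1 itself. CDKN1B encodes p27, which binds and inhibits cyclin E and CDK2 and accumulates in arrested and crowded cells. A549 cells have lost CDKN2A, the gene of the INK4 inhibitor p16, while RB1 is intact. RNA was taken from cultures above 90% confluency. An average over a culture cannot tell a different share of cells in G1 from a different amount of transcript per cell.

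The 250 bases before the annotated start are shown for a pair of the genes, in the RefSeq assembly GRCh38.p14, 5′ to 3′ on the strand of the gene. CCNE1 is shown because its arrays separated most clearly by group, and CDK4 because MYC, measured here too, is known to act through E boxes of its promoter. Capitals mark the GC box GGGCGG, the letters bound by SP1, on either strand in CCNE1, and the E box CACGTG in CDK4.
CCNE1 (chr19:29811741-29811990, plus strand): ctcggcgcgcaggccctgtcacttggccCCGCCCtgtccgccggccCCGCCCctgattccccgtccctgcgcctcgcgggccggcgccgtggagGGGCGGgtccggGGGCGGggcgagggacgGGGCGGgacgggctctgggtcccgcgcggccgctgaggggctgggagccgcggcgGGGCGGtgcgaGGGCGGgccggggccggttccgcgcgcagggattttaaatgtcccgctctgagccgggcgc
CDK4 (chr12:57752311-57752560, minus strand): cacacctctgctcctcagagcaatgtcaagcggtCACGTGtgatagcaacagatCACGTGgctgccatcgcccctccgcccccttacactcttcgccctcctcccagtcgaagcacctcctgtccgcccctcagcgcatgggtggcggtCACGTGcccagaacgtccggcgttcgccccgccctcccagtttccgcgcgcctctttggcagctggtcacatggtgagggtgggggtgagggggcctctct
The CCNE1 stretch held 7 GC boxes, 5 on the strand of the gene and 2 on the other, none overlapping, and 81.2% of its bases were G or C. The CDK4 stretch held 3 E boxes. Of all 35116 stretches of this length in the RefSeq table, a GC box on either strand was held by 42.6%, an E box by 6.34% and the E2F letters TTTNNCGC by 5.92%. Of the genes examined, 6 had 9 entries in that table, and 6 entries held a GC box, 1 an E box and 0 the E2F letters. Of the 9 entries, 5 start inside the gene: the single RB1 entry (172699 bases inside), all 3 of CCND3 and 1 of the 2 of CDK6. A match of letters is a description of the sequence and not a measured site.

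The values are log2 levels, so a difference of 1 is a doubling. The 95th percentile of 349 olfactory receptor genes, taken as genes that A549 cells should not transcribe, was from 5.10 to 5.40 on the 4 arrays, and all 10 genes had a mean above it. Array medians were between 6.40 and 6.43, and correlations between arrays were between 0.990 and 0.994. In limma, 0 of the 21448 probe sets had a Benjamini-Hochberg adjusted p under 0.05 (0% called), and 1437 had an unadjusted p under 0.05 (6.7%). The epithelial genes KRT8, KRT18 and CLDN1 were bright on every array, with lowest levels of 17.11, 14.92 and 14.67. EPCAM lay only between 5.16 and 5.76 and KRT19 between 6.31 and 7.10. Of the 11 epithelial genes measured, 6 were higher with H2BK120R and 5 lower, with a median difference of 0.035. CDH1 was among the higher ones, with a difference of 0.60 ± 0.15 (SE, limma adjusted p = 0.650). KRT7 was among the lower ones, with a difference of -0.32 ± 0.11 (SE, limma adjusted p = 0.722). Over the 11 the groups did not overlap for 2 higher and 3 lower genes, compared with 18.7% and 17.9% of all genes. Of the marker lists, 5 of 9 leukocyte, 4 of 7 fibroblast and 5 of 6 endothelial genes had means within the olfactory receptor range. The 95th percentile of that range, by mean over the 4 arrays, was 5.17, and PTPRC and PECAM1 were below it. Above it were CD68 (mean 7.89), NKG7 (6.01), CD14 (5.33), CD3E (5.195), COL1A2 (8.26), COL1A1 (6.185), THY1 (6.12) and VWF (6.09). Of the leukocyte genes 8 of 9 were higher with H2BK120R (median difference 0.21), and 5 of 9 without H2BK120R replicate 1. The mean level of the leukocyte list was between 4.78 and 5.00 with H2BK120R and between 4.57 and 4.82 with the vector, and its part in the results was not tested.

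None of the 10 genes passed the test of H2BK120R against vector. The smallest adjusted p was 0.762 (limma, Benjamini-Hochberg over all probe sets), for RB1, and 0 had an unadjusted p under 0.05. The difference was positive for 7 genes and negative for 3, with a median of 0.13, where 49.9% of all probe sets were positive and their median was 0. Brighter probe sets leaned upward: at or above the median level, where 9 of the 10 genes lay, 54.4% were positive, with a median of 0.03. The 2 largest differences were of opposite sign: RB1 was nominally higher and CCNE1 nominally lower with H2BK120R. The median of the 10 genes was 0.04 without vector replicate 1 and 0.21 without vector replicate 2.

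**Figure D1:**
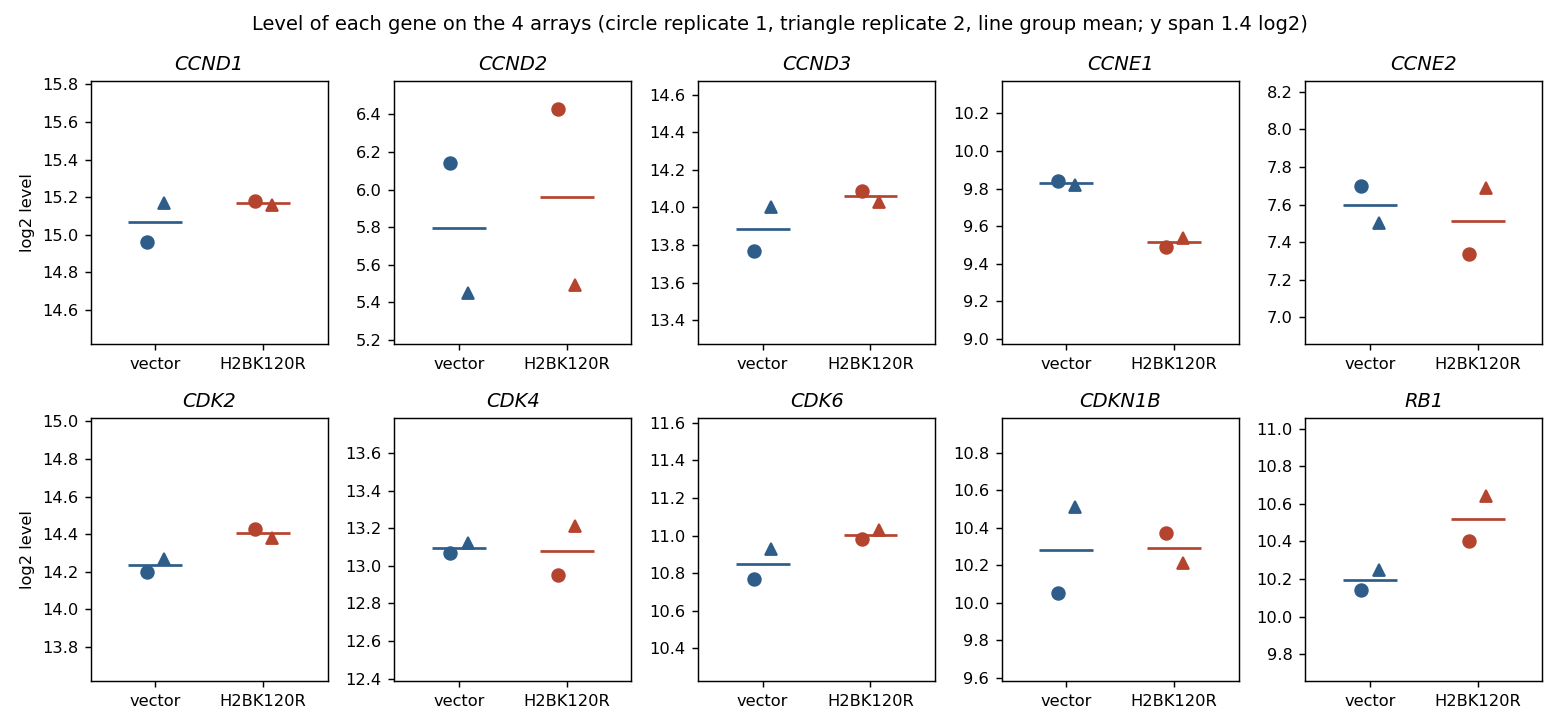
Log2 level (vertical axis, each panel spanning the same range) of each of the 10 genes in vector cells (blue) and H2BK120R cells (red). Circles are replicate 1, triangles replicate 2 and lines group means. The arrays of CCNE1 fall into separate groups, at 9.82 and 9.84 with the vector and 9.49 and 9.54 with H2BK120R, while those of CCND2 and CDKN1B overlap widely.

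Among the D-type cyclins, CCND1, which encodes cyclin D1, was measured at 15.18 and 15.16 in H2BK120R replicates 1 and 2 and at 14.96 and 15.17 in vector replicates 1 and 2. The groups overlapped, and vector replicate 1 alone was low. The difference was 0.11 with a standard error of 0.11 (95% interval -0.14 to 0.35, limma adjusted p = 0.869), and it was 0.00 without vector replicate 1. CCND3, which encodes cyclin D3, was at 14.09 and 14.03 with H2BK120R and at 13.77 and 14.00 with the vector. Its groups did not overlap, by a margin of 0.03 set by vector replicate 2. The difference was 0.18 ± 0.12 (SE, adjusted p = 0.804), and 0.06 without vector replicate 1 but 0.29 without vector replicate 2. CCND2, the gene of cyclin D2, was close to the olfactory receptor range, at 6.43 and 5.49 with H2BK120R and at 6.14 and 5.45 with the vector. In both groups replicate 1 was far above replicate 2, by 0.94 and 0.69. These gaps exceeded the difference of 0.17 ± 0.38 (SE, adjusted p = 0.944), which turned negative when H2BK120R replicate 1 (-0.31) or vector replicate 2 (-0.18) was left out.

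The kinases that pair with the D cyclins had small differences. The 95% interval of CDK6 reached 1.41-fold, and 1.54-fold without the variance trend. CDK4 was at 12.95 and 13.21 with H2BK120R and at 13.07 and 13.12 with the vector, so that both vector arrays lay between the H2BK120R arrays. Its difference was -0.02 ± 0.13 (SE), with a 95% interval from -0.31 to 0.28 and a limma adjusted p of 0.987. MYC, the transcription factor named above with the CDK4 promoter, was at 13.09 and 13.26 with H2BK120R and 13.28 and 13.27 with the vector, a difference of -0.10 ± 0.12 (SE, adjusted p = 0.891). CDK6 was at 10.98 and 11.03 with H2BK120R and at 10.77 and 10.93 with the vector. Its groups did not overlap, by a margin of 0.05, and the difference was 0.16 ± 0.15 (SE, adjusted p = 0.862). Without vector replicate 1 it was 0.08.

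Of the E-type cyclins, CCNE1 gave the clearest separation of the groups. CCNE1, which encodes cyclin E1, was at 9.49 and 9.54 with H2BK120R and at 9.84 and 9.82 with the vector. The replicates lay within 0.05 and 0.02 of each other and the groups were 0.28 apart, the widest margin among the 10 genes. The difference was -0.32, a change of -19.6% on the linear scale, with a standard error of 0.17 and a 95% interval from -0.70 to 0.07 (limma unadjusted p = 0.0982, adjusted p = 0.767). The standard error is larger than these replicates alone would give because limma draws each gene's spread towards that of other probe sets. With 1 array left out the difference stayed between -0.34 and -0.29. When probe sets were divided into 20 bins by mean level, 6.52% of the 1074 in its bin had a lower difference. CCNE2, the gene of cyclin E2, was at 7.34 and 7.69 with H2BK120R and at 7.70 and 7.50 with the vector. Its groups overlapped, and the difference of -0.09 ± 0.25 (SE, adjusted p = 0.958) became positive without H2BK120R replicate 1 (0.09) or vector replicate 1 (0.02).

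CDK2, the kinase partner of cyclin E, was at 14.43 and 14.38 with H2BK120R and at 14.20 and 14.27 with the vector. Both H2BK120R arrays were higher, by a margin of 0.11, and replicates lay within 0.05 and 0.07. The difference was 0.17 ± 0.11 (SE, 95% interval -0.07 to 0.41, limma adjusted p = 0.784), or 12.5% higher, and was between 0.14 and 0.21 with 1 array left out. In its bin of mean level 76.9% of probe sets had a lower difference. CDKN1B, the p27 gene, was at 10.37 and 10.21 with H2BK120R and at 10.05 and 10.51 with the vector. The vector arrays were its extremes, 0.46 apart, around both H2BK120R arrays. Its difference was 0.01 ± 0.19 (SE, adjusted p = 0.994) and was negative after quantile normalization (-0.02) and with equal array medians (-0.01).

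RB1, the gatekeeper that these kinases phosphorylate, was at 10.40 and 10.64 with H2BK120R and at 10.14 and 10.25 with the vector. Both H2BK120R arrays were above both vector arrays, by a margin of 0.15, which is less than the 0.24 between the H2BK120R replicates. The difference was 0.33, or 25.3% higher, with a standard error of 0.17 and a 95% interval from -0.05 to 0.70 (limma unadjusted p = 0.0818, adjusted p = 0.762). Leaving out H2BK120R replicate 2 gave 0.21 and leaving out H2BK120R replicate 1 gave 0.45, and without vector replicates 1 and 2 it was 0.27 and 0.38. A difference of at least this size in either direction was found for 19.4% of the 10724 probe sets at or above the median level. By the measure used for CCNE1 and CDK2, 92.0% of the 1071 probe sets in the bin of RB1 had a lower difference.

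**Figure D2:**
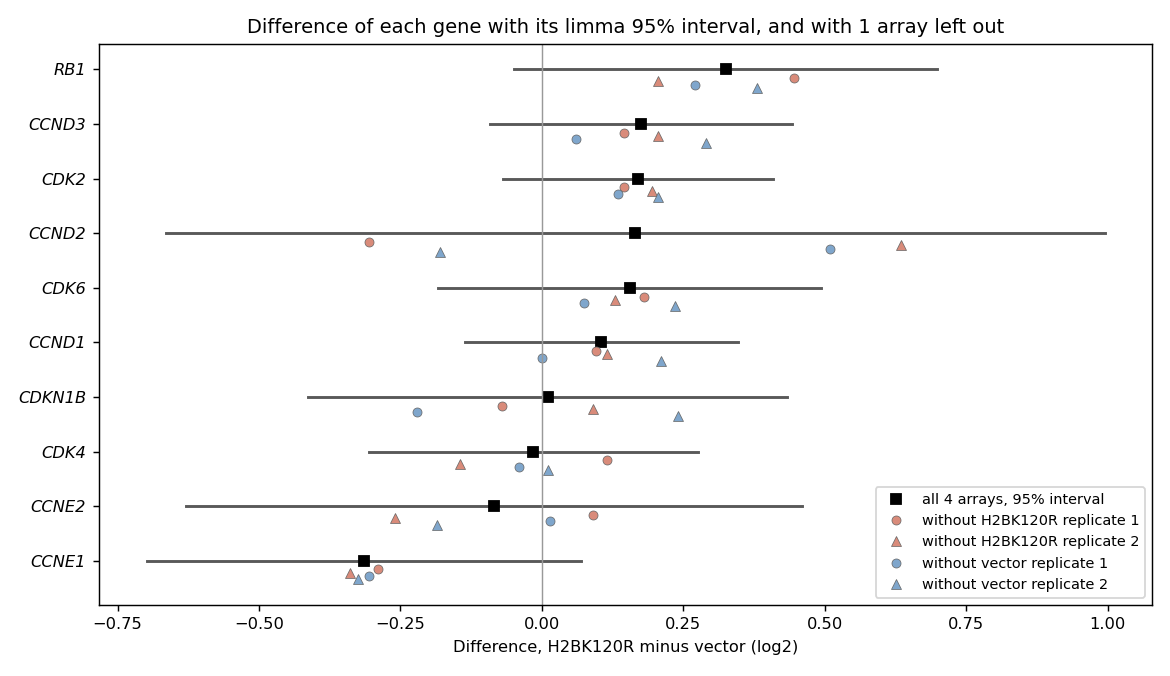
Difference between H2BK120R and vector (horizontal axis, log2) for each gene, as a black square with its limma 95% interval over all 4 arrays. The smaller symbols below give the difference with 1 array left out. Every interval includes 0, and CCNE1 keeps within -0.34 and -0.29 while CCND2 ranges from -0.31 to 0.64.

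The groups did not overlap for 5 of the 10 genes, compared with 36.5% of all probe sets. Of these, 4 were higher with H2BK120R (CCND3, CDK2, CDK6 and RB1; 18.6% of all probe sets) and 1 was lower (CCNE1; 17.9%). For 7 of the 10 genes the larger gap between replicates exceeded the difference between the groups, as it did for 75% of all probe sets. RB1, CCNE1 and CDK2 were the exceptions. Vector replicate 1 was the lowest array for 6 of the 10 genes (CCND1, CCND3, CDK2, CDK6, CDKN1B and RB1), compared with 28.8% of all probe sets. Without that array 6 genes were higher with H2BK120R, 3 lower and 1 equal.

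For all 10 genes the 95% interval lay within a 2-fold change either way, and for 6 (CCND1, CCND3, CDK2, CDK4, CDK6 and CDKN1B) within 1.5-fold. These bounds rest on the variance trend and on all arrays: without the trend 3 genes stayed within 1.5-fold (CCND1, CDK4 and CDKN1B) and CCND2 reached 2.16-fold, and with 1 array left out 3 to 5 genes did. With H2BK120R replicate 2 or vector replicate 1 left out, CCND2 reached 3.27-fold and 3.40-fold. The interval of CCNE2 also passed a 2-fold change without H2BK120R replicate 2. The intervals of RB1 and CCNE1 reached 1.62-fold higher and 0.616-fold of the vector level. The standard errors ran from 0.11 for CDK2 to 0.38 for CCND2, with a median of 0.16. The median was 0.28 for all probe sets and 0.19 for those at or above the median level. With 2 arrays a group, the smallest two-sided p that an exact permutation test can give for 1 gene is 0.333.

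**Figure D3:**
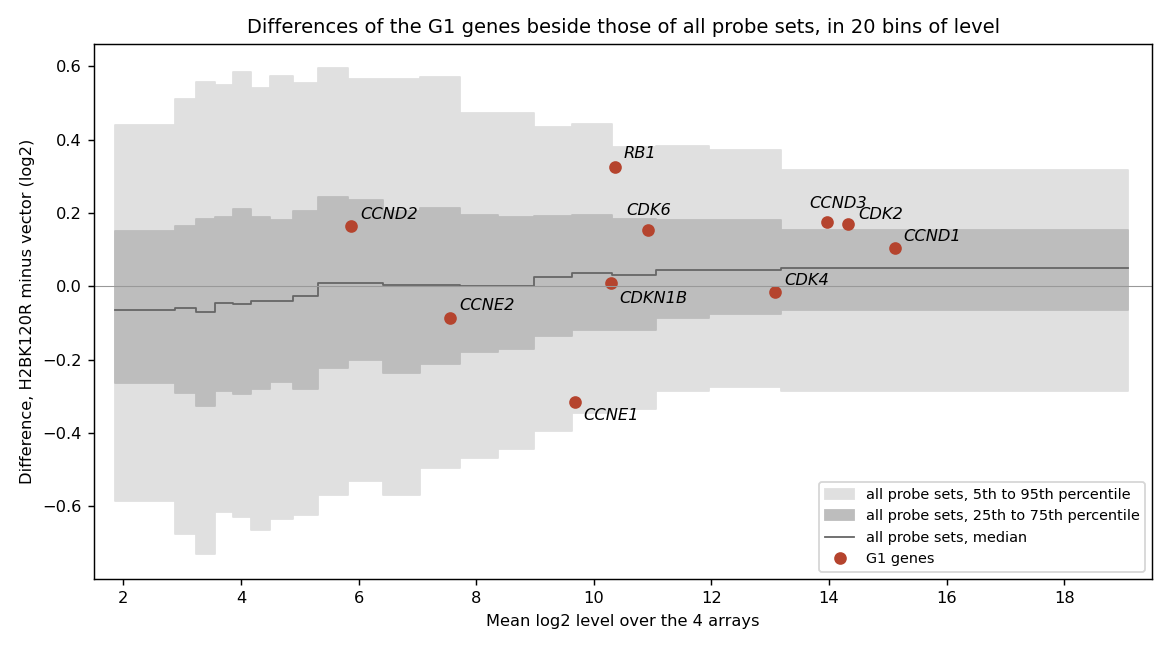
Difference between H2BK120R and vector (vertical axis, log2) against the mean log2 level over the 4 arrays (horizontal axis). Points are the 10 genes, and the grey steps give the 5th, 25th, 50th, 75th and 95th percentiles of all probe sets in 20 bins of level. All 10 genes fall between the 5th and 95th percentiles of their bin, with CCNE1 (-0.32) and RB1 (0.33) nearest the edges.

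Other genes of the G1 circuit, and related genes that act outside it, are given by the same counts. Among the remaining pocket proteins, E2F and DP factors, 8 of 12 were higher with H2BK120R and 4 lower, with a median difference of 0.16 and 0 past the adjusted threshold. RBL2, the gene of the pocket protein p130, was at 10.77 and 10.71 with H2BK120R and at 10.37 on both vector arrays (0.37 ± 0.16 SE, limma adjusted p = 0.745). RBL1, the gene of p107, was at 12.45 and 12.66 and at 12.21 and 12.39 (0.26 ± 0.14 SE, adjusted p = 0.767). Over the list of 12, the groups did not overlap for 4 higher and 2 lower genes, compared with 18.7% and 17.9% of all genes. TFDP2, which encodes a DP partner of E2F, differed by 0.40 ± 0.23 (SE), with vector replicate 1 at 10.08 and the other arrays between 10.87 and 10.89. E2F1, the activator that the retinoblastoma protein holds back, was at 9.06 and 8.89 with H2BK120R and at 9.22 and 8.84 with the vector, a difference of -0.06 ± 0.21 (SE, adjusted p = 0.967). The direction of this list leaned on the arrays: 6 of 12 were higher and the median was 0.06 without vector replicate 2. Without H2BK120R replicate 2 the median was 0.08, while 10 of 12 were higher.

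Of 48 measured E2F target genes of G1 and S phase, 26 were higher, 21 lower and 1 equal, with a median difference of 0.03 and 0 past the threshold. Without vector replicate 1, 18 were higher and 30 lower (median -0.06), and without vector replicate 2 the counts were 30 and 18 (median 0.12). CCNA2, the gene of cyclin A2, had the smallest unadjusted p of the list, with a difference of 0.74 ± 0.25 (SE, limma adjusted p = 0.705). Its 2 vector arrays were 1.01 apart. POLA2, a subunit of DNA polymerase alpha, was at 9.58 and 9.62 with H2BK120R and at 9.27 and 9.16 with the vector, 0.39 ± 0.18 (SE, adjusted p = 0.745).

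The other CDK inhibitors showed no common direction, where 2 of 5 were higher and 3 lower and the median difference was -0.07. CDKN2A was at 2.37 and 2.78 with H2BK120R and at 2.37 and 2.49 with the vector, within the range of the olfactory receptor genes on every array. CDKN1A, the gene of the p53-induced inhibitor p21, was at 11.19 and 10.99 and at 11.09 and 11.38 (-0.15 ± 0.16 SE, limma adjusted p = 0.884). CDKN2D, an INK4 gene, was dim, at 5.69 and 5.90 with H2BK120R and at 5.67 and 5.14 with the vector (0.39 ± 0.31 SE, limma adjusted p = 0.829). Among the activators and brakes of the kinases 9 of 11 were higher (median 0.16), and 7 of 11 without H2BK120R replicate 2 or without either vector array. The lists share genes: CCNA2, CCNA1 and CCNH are also counted among the cyclins outside G1, CDK1 and CDK7 among the other kinases, and CCNA2 among the E2F targets, which also share RBL1, E2F1 and E2F2 with the pocket protein and E2F list. CDC25C, a phosphatase that activates CDK1, differed by 0.33 ± 0.19 (SE), and CDK1 itself by 0.20 ± 0.14 (SE).

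Genes of the ubiquitin machinery that acts on G1 cyclins and p27 were lower for 15 of 17, with a median difference of -0.17. For 9 of the 17 (52.9%) the groups did not overlap and H2BK120R was lower, compared with 17.9% of all genes, and for 0 they did not overlap with H2BK120R higher. Of these 9, CDC34 was within the olfactory receptor range, at a mean of 4.87. Replicate 2 set narrow margins, at 8.53 with H2BK120R and 8.55 with the vector for FZR1, 12.37 and 12.40 for CKS1B, and 13.17 and 13.22 for DDB1. Of the 17 genes 0 passed the adjusted threshold, and 1 had an unadjusted p under 0.05. CUL1, the scaffold of the SCF ubiquitin ligase, was at 10.61 and 10.80 with H2BK120R and at 10.97 and 11.00 with the vector (-0.28 ± 0.16 SE, limma adjusted p = 0.767). RBX1, its RING subunit, was at 8.44 and 9.39 and at 9.23 and 10.20 (-0.80 ± 0.34 SE, adjusted p = 0.745), so its groups overlapped. CKS1B, the adaptor that SKP2 needs to recognise p27, differed by -0.22 ± 0.14 (SE), and CUL3, the scaffold of another ligase family, was at 10.08 on both H2BK120R arrays and at 10.32 and 10.31 with the vector. SKP2 itself, the receptor for p27, was at 11.89 and 12.11 and at 11.82 and 12.33, and its groups overlapped. With 1 array left out, between 12 and 17 of the 17 genes were lower, and the median was between -0.19 and -0.12. AMBRA1, the receptor that marks D-type cyclins for destruction, was at 12.32 and 12.28 with H2BK120R and at 12.43 and 12.41 with the vector, a difference of -0.12 ± 0.13 (SE). The 2 genes of the list that were higher with H2BK120R were FBXW7 (0.17 ± 0.34 SE) and CUL4A (0.09 ± 0.16 SE), both with overlapping groups.

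Cyclins outside G1 were higher for 16 of 19, with a median of 0.12 and 7 of the 19 with non-overlapping groups and H2BK120R higher, compared with 18.7% of all genes. Of these 7, CCNA1 and CCNO were within the olfactory receptor range. Without vector replicate 1 the count was 13 higher and 6 lower. CCNK, the cyclin of the transcription kinases CDK12 and CDK13, was at 13.17 and 13.50 with H2BK120R and at 12.94 and 13.10 with the vector (0.32 ± 0.14 SE, limma adjusted p = 0.745). CCNI, the gene of cyclin I, was at 14.83 and 14.77 and at 14.50 and 14.71 (0.20 ± 0.11 SE). The other cyclin-dependent kinases had 10 of 17 higher, 7 lower and a median of 0.02. With any 1 array left out, or after quantile normalization, 7 or 8 were higher and the median was from -0.04 to 0. CDK8, a kinase of the Mediator complex, differed by 0.39 ± 0.27 (SE), with vector replicate 1 at 7.89 and the other arrays between 8.61 and 8.73. The factors that act on the D cyclin and p27 genes had 10 of 21 higher, 11 lower and a median of -0.02. Without H2BK120R replicate 1, 6 were higher and 15 lower, and without vector replicate 1 the median was -0.13. FOSL1, an AP-1 subunit, was at 10.08 and 10.28 with H2BK120R and at 10.68 and 10.73 with the vector (-0.53 ± 0.16 SE, limma adjusted p = 0.693). FOXO1, a forkhead factor known to induce CDKN1B, differed by 0.88 ± 0.30 (SE, adjusted p = 0.722) at dim levels between 5.00 and 6.19, vector replicate 2 within the olfactory receptor range. The NF-kB subunit RELA differed by 0.39 ± 0.15 (SE, adjusted p = 0.739).

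**Figure D4:**
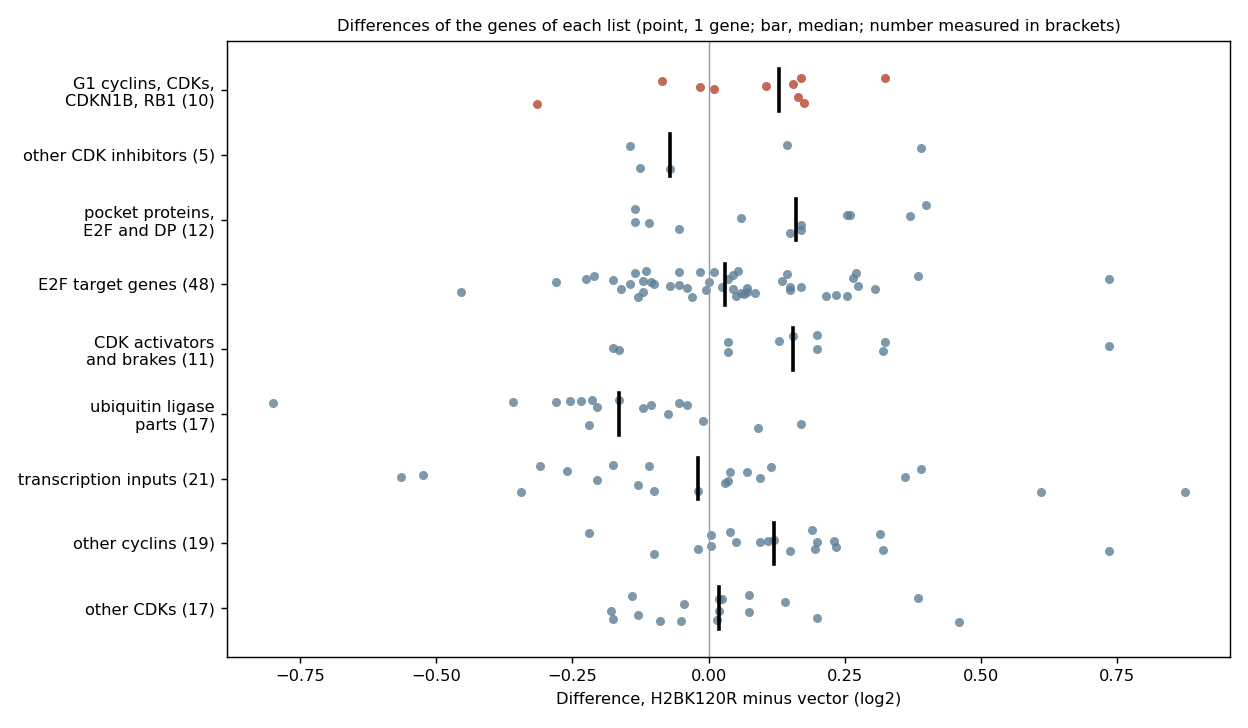
Difference between H2BK120R and vector (horizontal axis, log2) for every measured gene of each list. A point is a gene, a black bar the median of its list, and the number in brackets the genes measured. The genes of the ubiquitin machinery, labelled ubiquitin ligase parts, lie mostly below 0 (median -0.17). The cyclins outside G1 lie mostly above it (0.12), and the E2F target genes on both sides (0.03).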

How the data were processed

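Total RNA of 4 A549 samples, 2 a group by their titles, was measured on Affymetrix whole-transcript arrays. The deposited table holds 1 log2 level per probe set and array, normalized by the authors, with base 2 inferred from the range of 1.56 to 19.15. MAS5 is named without a version in the submitters' processing notes, and how it was applied is not given in the labels or file. Symbols came from GEO's platform annotation, where 17709 of 21448 probe sets had 1 symbol, 0 several and 3739 were unnamed here. Where a gene had more than 1 probe set, the brightest was used. All 10 members had 1 probe set and matched RefSeq by gene ID.

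The test of H2BK120R against vector used limma 3.58.1 under R 4.3.3 (lmFit, then eBayes with a mean-variance trend), two-sided, with p-values adjusted by Benjamini-Hochberg over the whole table. There were 2 residual and 8.95 prior degrees of freedom, and the script was tested on simulated data. Other genes named were up to 3 per list with the smallest unadjusted p, plus CDKN1A, CDKN2A, E2F1, RBL1, RBL2, SKP2, MYC and CCNA2 as partners. CUL3, AMBRA1, CDC34, FZR1, DDB1, FBXW7, CUL4A and the single cell type markers were picked after their values were seen. The members and lists were chosen with earlier results of these data known. For arrays, their number limits the precision. Alternatives were quantile normalization, equal medians, leaving out the dimmest 25% or 50%, probe sets with 1 symbol only, eBayes without the trend or robust, a block for the replicate number, and each array left out in turn. Figures were drawn with matplotlib 3.10.9 in Python 3.11.15.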

Additional observations from a re-analysis of the deposited data

How the results depend on the processing

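No gene examined passed an adjusted p of 0.05 in limma under any alternative run, arrays left out included, and 0 genes of the other lists did. CCND1, CCND3, CCNE1, CDK2, CDK6 and RB1 changed sign under none of 12 alternatives, although CCND1 came to 0.00 without vector replicate 1. The probe set filters, the eBayes variants and the replicate block leave a gene's difference as it is. Only the normalizations and the arrays left out could change a sign. CDKN1B changed sign after quantile normalization (-0.023) and with equal array medians (-0.005). With 1 array left out, the differences ranged from -0.31 to 0.64 for CCND2, -0.26 to 0.09 for CCNE2, -0.15 to 0.12 for CDK4 and -0.22 to 0.24 for CDKN1B, and the cause of these sign changes was not tested. The number of genes at an unadjusted p under the threshold ranged from 0 to 1, which was CCND3 without vector replicate 2 (limma adjusted p = 0.429). The median difference ranged from 0.038 to 0.21. The count with non-overlapping groups, 5 with all arrays, was 4 after quantile normalization (37.2% of all probe sets) and with equal array medians (36.6%), and ranged from 6 to 9 with 1 array left out, where 62.7% to 73.4% of all probe sets did not overlap. Without the variance trend the 95% interval lay within 1.5-fold for 3 genes (CCND1, CDK4 and CDKN1B), and with 1 array left out for 3 to 5. In each of these cases the interval of CCND2 reached past a 2-fold change in 1 direction or the other. The interval of CCNE2 also did so without H2BK120R replicate 2. CCND2 was not tested with the dimmest 50% left out. The numbers 1 and 2 are shared by the groups in the labels, which do not say that they mark a common culture or day, and replicate 1 minus replicate 2 correlated at 0.14 between the groups over probe sets. With the replicate block, the smallest p among the 10 genes was 0.0615 (RB1), and 0 passed. The choice between probe sets of a gene and the pseudocount did not apply here.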
